A study of Homo sapiens with 6 samples.

Results

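Transcripts of 10 secreted signalling proteins were followed in A549 cells, an established line from a human lung adenocarcinoma, after 24 h with lactic acid at 20 mM added to the medium or with an equal volume of phosphate-buffered saline (PBS). The 10 genes were taken by symbol from 23827 genes in the deposited table, and they comprise 5 CXC chemokines of neutrophils (CXCL1, CXCL2, CXCL3, CXCL5 and CXCL8), 2 CC chemokines (CCL2 and CCL20) and 3 cytokines of the IL-6 family (IL6, IL11 and LIF). Each group held 3 libraries of polyadenylated RNA and no further treatment is given. The labels call the libraries biological replicates but do not say that they were separate cultures, so the p-values measure the spread between these libraries, which may be technical. Lactic acid brings lactate and protons together, and neither was analysed alone here. The series title names CHAC1, ferroptosis and tumour progression, and the comparison here asks how this set of secreted signals differed after lactic acid.

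Chemokines are small secreted proteins that draw leukocytes along a gradient through receptors on the leukocyte surface. The CXC members here carry a glutamate-leucine-arginine motif and act on neutrophils through CXCR1 and CXCR2, whereas CCL2 acts on monocytes through CCR2, and CCL20 on CCR6-bearing lymphocytes and dendritic cells. IL-6 family cytokines share the signalling chain gp130, encoded by IL6ST, and signal through JAK kinases and STAT3. Carcinoma cells of the lung are known sources of several of these proteins, and many of the genes are textbook targets of NF-kappaB.

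The libraries held 35678633 to 42938870 counts in genes after lactic acid and 33492831 to 39023674 after PBS. All 10 genes passed the filter on low counts, and the lowest value of any of them in any library was 16 counts. Epithelial keratins were abundant, with KRT8 at 1814 ± 29.03 CPM after lactic acid and 1874 ± 83.5 CPM after PBS (SD, n = 3 each), while EPCAM stood at 1.62 ± 0.434 and 3.29 ± 0.501 CPM. CPM are counts per 1000000 scaled by TMM factors. The 7 epithelial markers summed to 4071 to 4169 CPM after lactic acid and 4770 to 5046 CPM after PBS, and 2 of them rose and 4 fell. KRT8 had no call and was outside the rule for naming genes. KRT7, KRT18, CDH1 and EPCAM fell, with log2 fold changes of −0.54 to −0.51 for KRT7 and −0.23 to −0.17 for KRT18 over the fits without 1 library. KRT19 (0.14 to 0.22) and MUC1 (0.64 to 0.70) rose, and MUC1 was not called with limma-trend on FPKM. Of 12 leukocyte markers 7 were at 0 counts in all libraries, and PTPRC, which marks nearly all leukocytes, had 2 counts in 1 PBS library. The list summed to 35.7 to 40.4 CPM after lactic acid against 46.1 to 50.6 CPM after PBS, most of it CD68, which fell. The 6 endothelial markers together had 0.267 to 0.505 CPM after lactic acid and 0.0594 to 0.501 CPM after PBS, with CDH5 at 0. Fibroblast markers were counted for 8 of 8 genes and summed to 102 to 111 CPM after lactic acid against 139 to 152 CPM after PBS, most of it COL1A1 (79.7 ± 4.01 against 112 ± 7.59 CPM). None of the 8 was at 0 throughout, and 5 of 6 tested fell, or 2 without the second lactic acid library. Over all tested genes 18.7% were called higher and 16.7% lower, the background for the counts of markers called in these lists. The part of these marker levels in the results below was not tested. In bulk RNA, a change in the share of cells that express a gene and a change per cell cannot be told apart.

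Of the 10 transcripts, 9 rose after lactic acid, 0 fell, and IL11 was the gene without a call. At an adjusted p under 0.05 in edgeR's quasi-likelihood test, 35.4% of 15474 tested genes were called, 18.7% higher and 16.7% lower. For those 9 genes every lactic acid library was above every PBS library, as it was for 24.4% of tested genes, while 23.1% showed the opposite separation. The median log2 fold change of the 10 was 0.47 (1.38-fold), beside 0.0024 over all tested genes. CCL20 and IL6 rose more than 2-fold, as did 1.22% of tested genes, while the other 7 rises lay between 1.27-fold and 1.495-fold. None of the 9 calls was lost under any of 16 alternative settings. The 10 genes were chosen with earlier results of these data known, so the shares over all genes are a background and not a test.

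**Figure D1:**
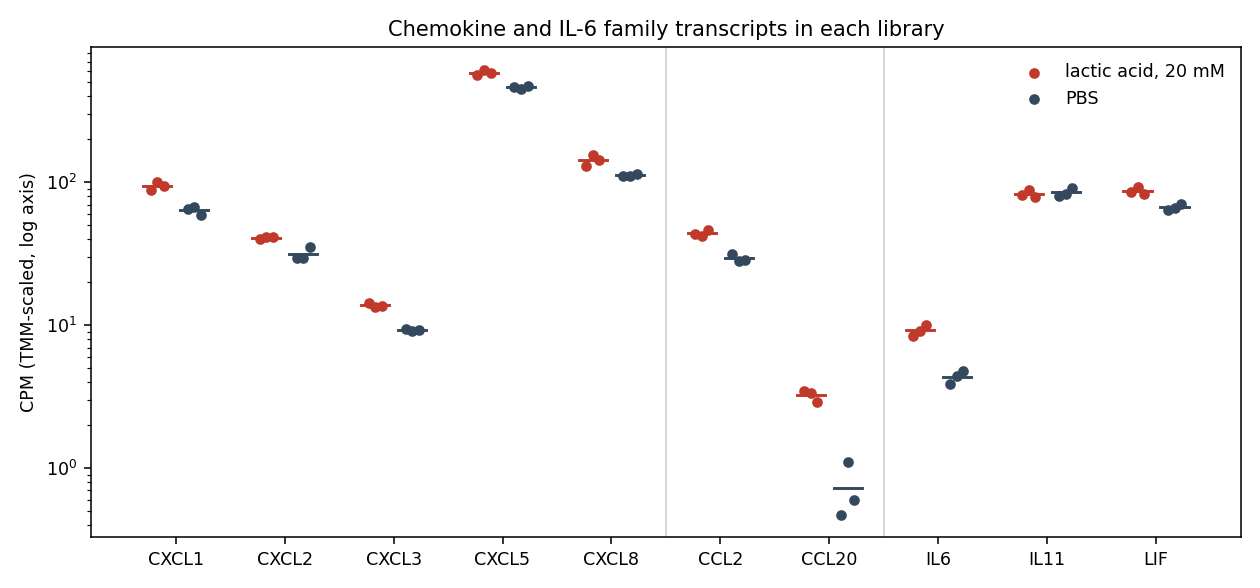
Read counts scaled to library size (CPM, TMM-scaled, log axis) of the 10 transcripts in each of the 6 libraries; points are libraries, bars are means, with lactic acid in red left of PBS in dark blue. The red points lie above the dark points for each gene except IL11, whose lactic acid libraries run between 79.5 and 88.5 CPM and whose PBS libraries run between 80.3 and 91.9 CPM.

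The 5 neutrophil chemokines lie on chromosome 4 within 358788 bases (73740506 to 74099293, GRCh38), CXCL8 and CXCL1 on the plus strand and CXCL5, CXCL3 and CXCL2 on the minus strand. CXCL1, CXCL2 and CXCL3 are close copies, and the stretches ahead of their starts are shown because they are nearly the same sequence. The identity over the aligned bases was 93.8% between CXCL1 and CXCL2 and 91.5% between CXCL1 and CXCL3. The RefSeq sequences (GRCh38.p14) immediately upstream of the RefSeq start, which can differ from the GENCODE one, are given 5′ to 3′ on the gene's strand, with matches to GGNNNTTCC, a simplified NF-kappaB motif, in capitals; CXCL8 is added because it has the same 9 capital letters outside that copy family.
CXCL1, chr4:73869263-73869392, plus strand: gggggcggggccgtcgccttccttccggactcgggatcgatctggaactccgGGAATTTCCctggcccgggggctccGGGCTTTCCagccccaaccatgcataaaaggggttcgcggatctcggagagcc
CXCL2, chr4:74099196-74099325, minus strand: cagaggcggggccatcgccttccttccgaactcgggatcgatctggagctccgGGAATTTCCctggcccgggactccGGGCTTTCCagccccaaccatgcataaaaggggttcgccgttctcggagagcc
CXCL3, chr4:74038690-74038819, minus strand: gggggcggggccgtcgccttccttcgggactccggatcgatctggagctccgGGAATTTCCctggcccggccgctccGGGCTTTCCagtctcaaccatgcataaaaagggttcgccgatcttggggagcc
CXCL8, chr4:73740439-73740568, plus strand: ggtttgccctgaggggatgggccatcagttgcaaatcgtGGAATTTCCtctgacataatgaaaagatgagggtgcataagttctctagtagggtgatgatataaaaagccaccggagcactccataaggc
The same 9 letters also stood at position −90 before the start of CXCL5. In the RefSeq table, 8 of the 10 genes had a promoter entry. GGNNNTTCC was found on either strand in 7 of those 8 entries, against 20.1% of 35116 promoters of the same length. The entries are longer than the stretches shown, and the 7 include the close copies CXCL1, CXCL2 and CXCL3. Other simplified motifs searched were the AP-1 site (2 of 8, against 7.71% of promoters) and the C/EBP site (2 of 8, against 10.5%). A STAT site was found in 1 of 8 (against 7.66%) and a cAMP response element in 0 (against 1.85%).

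CXCL5, the chemokine also called ENA-78, was the most abundant of the 10 transcripts, with 563, 614 and 577 CPM after lactic acid and 462, 450 and 473 CPM after PBS. Every lactic acid library exceeded every PBS library. The rise was 1.27-fold (log2 fold change 0.34, SE 0.036, adjusted p = 2.61e-05 in edgeR). By mean FPKM (a level scaled by transcript length and depth) CXCL5 ranked 213 among the 23827 genes after lactic acid and 247 after PBS.

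CXCL8, or interleukin-8, which binds both neutrophil receptors, had 130, 156 and 144 CPM after lactic acid and 112, 111 and 114 CPM after PBS. The PBS libraries lay close together and the lactic acid libraries were more spread, but the groups stayed apart. The rise was 1.28-fold (log2 fold change 0.35, SE 0.058, adjusted p = 0.000639 in edgeR).

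CXCL1, a ligand of CXCR2 first described as a melanoma growth-stimulating activity, had 87.9, 101 and 94.0 CPM after lactic acid and 64.9, 67.8 and 59.2 CPM after PBS. It rose 1.47-fold (log2 fold change 0.56, SE 0.058, adjusted p = 2.02e-05 in edgeR). CXCL3, the least abundant of the 5, had 512, 573 and 513 counts after lactic acid and 318, 309 and 371 counts after PBS, or 14.4, 13.5 and 13.7 CPM against 9.37, 9.18 and 9.35 CPM. Its groups were wide apart relative to the spread of the PBS libraries, and it rose 1.49-fold (log2 fold change 0.57, SE 0.080, adjusted p = 0.000191 in edgeR).

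CXCL2, the closest copy of CXCL1, had 39.99, 41.4 and 41.8 CPM after lactic acid and 29.6, 29.7 and 35.3 CPM after PBS. The third PBS library was the high one and still lay below all lactic acid libraries. The rise was 1.299-fold (log2 fold change 0.38, SE 0.064, adjusted p = 0.000764 in edgeR). The GENCODE transcripts of CXCL1 and CXCL2 were 90.5% identical over 1086 aligned bases, and those of CXCL1 and CXCL3 81.7% over 1001. No stretch of 150 bases, the read length, occurred unchanged in both members of any pair among CXCL1, CXCL2, CXCL3 and CXCL5. The authors' treatment of reads with several matches is not given in the sources used here, so the split of reads among the 3 copies is uncertain. Counted as 1 feature, CXCL1, CXCL2 and CXCL3 had 142, 156 and 149 CPM after lactic acid and 104, 107 and 104 CPM after PBS, a rise of 1.42-fold (log2 fold change 0.51, SE 0.041, adjusted p = 2.92e-06 in edgeR). CXCL6, the nearest relative of CXCL5, had 0 counts in all 6 libraries.

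Within the 5 neutrophil chemokines the shares shifted by small amounts. The groups were apart for CXCL5, CXCL1 and CXCL3 and overlapped for CXCL2 and CXCL8, and the shares were not tested. CXCL5 took 51.9%, 50.9% and 50.8% of their summed FPKM after lactic acid and 53.1%, 52.2% and 53.6% after PBS. CXCL1 took 18.7%, 19.3% and 19.1% after lactic acid and 17.3%, 18.2% and 15.5% after PBS. CXCL3 took 3.13%, 2.64% and 2.84% after lactic acid and 2.54%, 2.51% and 2.50% after PBS. The FPKM ratio of CXCL1 to CXCL5 was 0.361, 0.379 and 0.377 after lactic acid and 0.325, 0.348 and 0.290 after PBS. Groups were apart for this ratio, and the exact permutation test gave p = 0.1 (two-sided), the smallest that 3 against 3 libraries allow. This ratio was not among the planned tests.

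CCL20, on chromosome 2 (227805739 to 227817564, plus strand, GRCh38), showed the largest fold change of the 10. It had 123, 142 and 109 counts after lactic acid and 16, 37 and 24 counts after PBS, or 3.45, 3.34 and 2.91 CPM against 0.472, 1.099 and 0.605 CPM. All lactic acid libraries were well above all PBS libraries, although the PBS values spread by a coefficient of variation of 45.6% against 8.90% after lactic acid. The rise was 4.46-fold (95% interval 2.94 to 6.79; log2 fold change 2.16, SE 0.276, adjusted p = 0.000103 in edgeR). On the log2(FPKM + 1) scale, which understates changes of low genes, the difference was 1.37. The upstream sequence of CCL20 is shown because this gene moved most, with the reverse-strand match to GGNNNTTCC in capitals.
CCL20, chr2:227813712-227813841, plus strand: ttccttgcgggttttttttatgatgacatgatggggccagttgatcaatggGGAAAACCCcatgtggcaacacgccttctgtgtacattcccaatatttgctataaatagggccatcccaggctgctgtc

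CCL2, the monocyte chemokine MCP-1 on chromosome 17 (34255218 to 34257203, plus strand), had 43.5, 41.9 and 46.7 CPM after lactic acid and 31.4, 28.2 and 28.7 CPM after PBS. The lowest lactic acid library lay above the highest PBS library. The rise was 1.495-fold (log2 fold change 0.58, SE 0.056, adjusted p = 1.1e-05 in edgeR).

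IL6, the founding cytokine of its family and a driver of the acute phase response, lies on chromosome 7 (22725884 to 22732002, plus strand). It had 299, 391 and 379 counts after lactic acid and 133, 149 and 191 counts after PBS, or 8.40, 9.19 and 10.1 CPM against 3.92, 4.43 and 4.81 CPM. The groups were far apart, and the rise was 2.10-fold (95% interval 1.75 to 2.52; log2 fold change 1.07, SE 0.120, adjusted p = 3.68e-05 in edgeR). STEAP1B, which overlaps IL6 on the opposite strand, had 20 counts over all libraries against 1542 for IL6. The upstream sequence of IL6 is shown because the match in capitals is the motif named above in a member of the other family.
IL6, chr7:22727070-22727199, plus strand: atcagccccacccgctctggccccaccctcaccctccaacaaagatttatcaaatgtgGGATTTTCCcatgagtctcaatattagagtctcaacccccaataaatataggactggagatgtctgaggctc

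LIF, leukaemia inhibitory factor, on chromosome 22 (30240447 to 30246851, minus strand), had 85.9, 92.4 and 82.8 CPM after lactic acid and 64.3, 66.5 and 70.1 CPM after PBS. Its groups did not overlap, and it rose 1.299-fold (log2 fold change 0.38, SE 0.048, adjusted p = 9.78e-05 in edgeR).

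IL11, a cytokine known for roles in stroma and fibrosis, on chromosome 19 (55364389 to 55370463, minus strand), stood apart from the other 9. It had 81.1, 88.5 and 79.5 CPM after lactic acid and 80.3, 83.4 and 91.9 CPM after PBS. The groups overlapped throughout (log2 fold change −0.037, SE 0.055, adjusted p = 0.647 in edgeR), and the 95% interval of the fold, 0.896 to 1.0602, lay below the intervals of all other members. Without the third PBS library the log2 fold change was 0.017. The FPKM ratio of LIF to IL11 was 0.565, 0.554 and 0.560 after lactic acid and 0.427, 0.423 and 0.403 after PBS. Those ranges were apart, with p = 0.1 in the exact permutation test (two-sided), the smallest possible here. The ratio was not among the planned tests, and it restates the rise of LIF beside IL11 without a call.

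**Figure D2:**
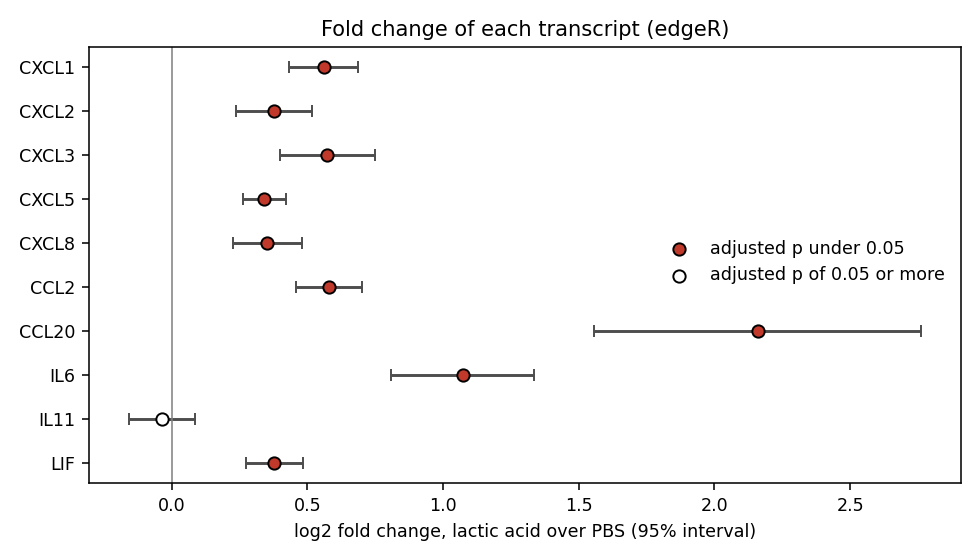
Log2 fold changes of the 10 transcripts, lactic acid over PBS, from edgeR with 95% intervals; filled points have an adjusted p under 0.05. CCL20 lies furthest to the right at 2.16, IL6 follows at 1.07, and the interval of IL11 spans 0.

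The sizes of the changes fell into steps when their intervals were compared. The interval of CCL20 began at 2.94-fold, above the end of that of IL6 at 2.52-fold. The interval of IL6 began at 1.75-fold, above the end of those of the remaining 8 genes, the highest of which was 1.68-fold for CXCL3. Differences between genes were not tested beyond these intervals.

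Compared per transcript length, CXCL5 led in both groups with 213 ± 9.47 FPKM after lactic acid and 173 ± 5.02 FPKM after PBS (SD, n = 3 each). CXCL8 came next at 80.7 ± 7.30 and 65.1 ± 1.58 FPKM, and CXCL1 followed at 79.4 ± 5.35 and 55.3 ± 3.57 FPKM. After lactic acid the libraries of CXCL8 and CXCL1 overlapped, whereas after PBS they did not. CCL2 had 54.9 ± 3.11 FPKM after lactic acid and 37.7 ± 1.83 FPKM after PBS, and IL11 had 36.3 ± 2.29 and 38.4 ± 3.19 FPKM. CCL2 thus exceeded IL11 in every lactic acid library, while after PBS the ranges of the 2 genes overlapped. Their FPKM ratio was 1.53, 1.34 and 1.69 after lactic acid and 1.12, 0.963 and 0.883 after PBS (exact permutation p = 0.1, two-sided, the smallest possible). That ratio was likewise unplanned and restates the rise of CCL2 beside IL11 without a call. CXCL2 had 31.1 ± 0.714 FPKM after lactic acid against 24.6 ± 2.74 FPKM after PBS, and LIF 20.3 ± 1.13 against 16.0 ± 0.852 FPKM. CXCL3 lay lower at 11.9 ± 0.406 against 8.19 ± 0.110 FPKM. IL6 had 6.93 ± 0.464 FPKM after lactic acid against 3.65 ± 0.478 FPKM after PBS, and CCL20 closed the order at 3.61 ± 0.316 against 0.802 ± 0.364 FPKM. Other neighbours in either order had ranges that did not overlap.

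**Figure D3:**
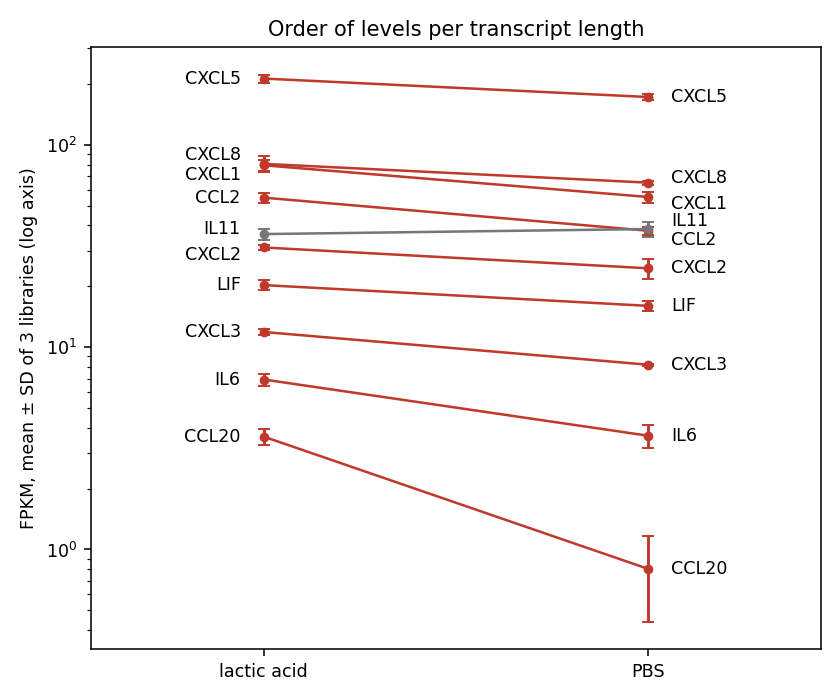
Mean FPKM (log axis) with SD over 3 libraries for the 10 transcripts after lactic acid, left, and after PBS, right; lines join the same gene, red where it was called higher and grey for IL11. The line of IL11 meets that of CCL2 at the PBS side, near 38 FPKM, and runs below it at the lactic acid side.

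Short-lived cytokine transcripts often carry AU-rich elements, repeats of AUUUA that proteins such as tristetraprolin bind. In the 3′ untranslated regions (GENCODE release 29, longest per gene, DNA letters), ATTTA was found in 10 of 10 genes, against 67.6% of 19130 coding genes, and the nonamer TTATTTATT in 6 of 10, against 8.20%. Counts of ATTTA ran from 1 in CCL2 to 11 in CXCL5, and IL6 had 6 in 429 bases. CXCL1, CXCL2 and IL11 are shown because runs of overlapping ATTTA, in capitals, stood both in genes that rose and in the gene that was not called.
CXCL1, chr4:73870674-73870702, plus strand: agtcttctATTTATTTATTTAttcattag
CXCL2, chr4:74097590-74097618, minus strand: agtcttctATTTATTTATTTATTTATTTA
IL11, chr19:55365947-55365975, minus strand: aagccagatcttATTTATTTATTTAtttc
The nonamer was found 6 times in IL11, 5 times in CXCL2 and 3 times in CXCL1, and in none of CXCL5, CCL2, CCL20 and IL6.

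Transcripts of the receptors that these chemokines use were at or near 0 in the same cells. CXCR1, CXCR2 and CCR2 had 0 counts in all 6 libraries, and CCR6 had 0 counts in each lactic acid library and 0, 2 and 3 counts after PBS. Of 22 chemokine receptors, 3 were tested and 0 were called: CCR7 (4.69 ± 0.607 CPM after lactic acid, 5.08 ± 0.859 CPM after PBS), CCR10 (0.489 ± 0.180 and 0.476 ± 0.120 CPM) and the scavenging receptor ACKR3 (3.59 ± 0.709 and 4.17 ± 0.448 CPM), with unadjusted p between 0.211 and 0.931 in edgeR. Without the filter on low counts 1 receptor was called higher, and limma-trend on FPKM called 0. CXCR4, which had too few counts for the test, had 3, 9 and 14 counts after lactic acid and 0 counts in each PBS library; it was named after its values were seen.

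Among 29 other chemokine ligands 12 were at 0 counts in all libraries, 6 were tested, 3 rose and 0 fell, with a median log2 fold change of 0.59. Over all tested genes 18.7% were called higher and 16.7% lower, the background for this list and for those below. CCL28, a chemokine of mucosal epithelia, had 48, 53 and 56 counts after lactic acid and 9, 20 and 20 counts after PBS (2.97-fold, adjusted p = 0.00252 in edgeR); it was named after its values were seen. CXCL12, the ligand of CXCR4, had 2.13 ± 0.709 CPM after lactic acid and 1.17 ± 0.0889 CPM after PBS, a rise of 1.82-fold (adjusted p = 0.0219 in edgeR). CXCL16, a membrane-bound chemokine, rose 1.24-fold (10.1 ± 0.909 against 8.21 ± 0.860 CPM, adjusted p = 0.0453 in edgeR). CXCL12 missed the threshold when lactic acid library 1, PBS library 2 or PBS library 3 was left out (adjusted p 0.0633 to 0.118 in edgeR), and the count of rises was then 1. CXCL16 missed it in 11 of 16 alternatives, among them each fit without 1 library other than PBS library 1 (0.0538 to 0.167). With limma-trend on log2(FPKM + 1) the list had 0 rises and 0 falls. CCL28 and CXCL12 were too low in FPKM to be tested in that fit, so it cannot speak to their rises. On log2(FPKM + 0.1) the list had 1 rise and 1 fall, and CXCL12 missed the threshold there.

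Of 8 receptor genes of the IL-6 family 7 were tested, 4 rose and 0 fell, with a median log2 fold change of 0.15. CNTFR, the CNTF receptor chain, had too few counts for the test, with 0, 5 and 0 counts after lactic acid and 0, 2 and 0 counts after PBS; it was named after its values were seen. IL6R, the IL-6 binding chain, had 12.5 ± 1.09 CPM after lactic acid and 5.48 ± 0.620 CPM after PBS, a rise of 2.28-fold (adjusted p = 1.01e-05 in edgeR). OSMR, the oncostatin M receptor chain, rose 1.63-fold (527 ± 11.6 against 324 ± 3.52 CPM, adjusted p = 2.27e-08 in edgeR). IL6ST, the shared chain gp130, rose 1.11-fold (289 ± 7.29 against 260.0 ± 14.7 CPM, adjusted p = 0.0168 in edgeR) and LIFR, the LIF receptor chain, 1.13-fold (22.5 ± 0.381 against 20.0 ± 0.949 CPM, adjusted p = 0.0482 in edgeR). IL6ST missed the threshold when library 2 or 3 of either group was left out (adjusted p 0.0625 to 0.0864 in edgeR), and the count of 4 was then 2. IL6ST also missed the threshold with limma-trend on FPKM. LIFR missed it in 13 of 16 alternatives, among them each fit without 1 library other than PBS library 1 (0.0792 to 0.150). IL11RA, the receptor chain of IL11, had 8.33 ± 0.544 CPM after lactic acid and 8.14 ± 0.720 CPM after PBS (adjusted p = 0.830 in edgeR); it was chosen after its values were seen, as the partner of IL11.

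Of 8 other ligands of the family 4 were tested, 1 rose and 1 fell. CLCF1, which signals through the CNTF receptor, rose 1.26-fold (44.0 ± 0.811 CPM after lactic acid against 34.9 ± 0.527 CPM after PBS, adjusted p = 5.64e-05 in edgeR). EBI3, a subunit of IL-27, fell by 0.65 on the log2 scale (2.03 ± 0.378 against 3.17 ± 0.185 CPM, adjusted p = 0.0158 in edgeR). CNTF had 1.69 ± 0.571 CPM after lactic acid and 1.24 ± 0.176 CPM after PBS and was not called. EBI3 missed the threshold when lactic acid library 1 or 2 or PBS library 3 was left out (adjusted p 0.0534 to 0.0615 in edgeR).

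Downstream, 4 of 14 tested genes of JAK-STAT3 signalling and feedback rose and 0 fell (median log2 fold change 0.094). Over all tested genes 18.7% rose and 16.7% fell. STAT3, the transcription factor of the pathway, rose 1.28-fold (211 ± 5.54 CPM after lactic acid against 165 ± 3.22 CPM after PBS, adjusted p = 1.57e-05 in edgeR). JAK2, a kinase of cytokine receptors, rose 1.28-fold (adjusted p = 0.0119 in edgeR), and PTPN11, a phosphatase of the pathway, 1.086-fold (adjusted p = 0.0235 in edgeR). SOCS3, the feedback inhibitor that STAT3 induces, was chosen after its values were seen and had 32.01 ± 1.40 CPM against 30.7 ± 0.923 CPM (adjusted p = 0.374 in edgeR). JAK2 missed the threshold when lactic acid library 2 or PBS library 3 was left out (adjusted p 0.0523 to 0.0652 in edgeR), and also with limma-trend on FPKM. PTPN11 missed it when lactic acid library 1 or 3 or PBS library 2 or 3 was left out (0.0661 to 0.116). PTPN11 also missed it with library totals alone and with limma-trend on FPKM, in all 7 of 16 alternatives. The count of 4 was 2 without the third PBS library. Over the fits without 1 library, the count of falls in this list ran from 0 to 1.

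Of 16 acute phase genes listed as STAT3-induced 9 were tested, 3 rose and 1 fell (median log2 fold change 0.60). The fibrinogen chains FGA and FGB rose 2.60-fold (5.82 ± 0.492 CPM after lactic acid against 2.24 ± 0.540 CPM after PBS) and 1.80-fold (3.56 ± 0.816 against 1.98 ± 0.330 CPM), with adjusted p of 0.000102 and 0.00792 in edgeR. FGG, the remaining fibrinogen chain, was named after its values were seen and had 46, 51 and 27 counts after lactic acid and 55, 48 and 19 counts after PBS, with overlapping groups (log2 fold change −0.12, adjusted p = 0.850 in edgeR). LBP, which binds lipopolysaccharide, rose 1.64-fold (10.1 ± 1.09 against 6.19 ± 0.852 CPM, adjusted p = 0.000997 in edgeR). SERPINA3, an acute phase protease inhibitor, went the other way and fell by 1.32 on the log2 scale (13.97 ± 3.13 against 34.9 ± 7.68 CPM, adjusted p = 0.000111 in edgeR).

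Genes that regulate these chemokines were mixed. Of 15 tested NF-kappaB subunits and inhibitors 2 rose and 0 fell (median log2 fold change 0.050), beside 18.7% and 16.7% of all tested genes. Over the fits without 1 library, the count of falls among these 15 ran from 0 to 1. NFKBIZ, a nuclear cofactor of NF-kappaB, rose 1.63-fold (119 ± 2.84 CPM after lactic acid against 73.0 ± 2.79 CPM after PBS, adjusted p = 2e-07 in edgeR), and TNIP1, a partner of the deubiquitinase A20, 1.32-fold (226 ± 4.57 against 170.4 ± 9.14 CPM). Of 10 tested genes for IL-1, TNF and related ligands and receptors 2 rose and 3 fell. IL18, a cytokine of the IL-1 family, rose 1.505-fold (46.2 ± 0.492 against 30.7 ± 1.96 CPM), and IL1RAP, the accessory chain of the IL-1 receptor, 1.18-fold (adjusted p = 0.0178 in edgeR). IL33, an epithelial alarmin, fell by 1.496 on the log2 scale (1.253 ± 0.648 against 3.56 ± 0.432 CPM). The TNF receptor TNFRSF1A and the IL-17 receptor chain IL17RC fell by 0.24 and 0.43 on the log2 scale. IL1RAP missed the threshold when lactic acid library 2 or 3 or PBS library 1 or 2 was left out (adjusted p 0.0626 to 0.103 in edgeR), which left 1 rise. IL1RAP also missed the threshold with limma-trend on FPKM.

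Among 12 tested C/EBP and AP-1 factors 6 rose and 2 fell (median log2 fold change 0.21). FOS, a subunit of AP-1, had 82.5 ± 18.0 CPM after lactic acid and 22.5 ± 4.36 CPM after PBS, a rise of 3.66-fold (adjusted p = 3.77e-06 in edgeR). CEBPB and CEBPD, factors first described on IL6 and acute phase promoters, rose 1.31-fold (149 ± 16.1 against 114 ± 5.72 CPM) and 1.46-fold (53.9 ± 5.54 against 37.1 ± 3.50 CPM). The AP-1 subunits JUND and FOSL2 rose 1.41-fold and 1.14-fold, and JUNB fell by 0.29 on the log2 scale. FOSB (3.49-fold higher, 16.9 ± 8.08 against 4.82 ± 2.80 CPM, adjusted p = 0.00666 in edgeR) and FOSL1 (log2 fold change −0.36, adjusted p = 0.0476 in edgeR) were named after their values were seen. FOSB missed the threshold with limma-trend on log2(FPKM + 0.1) (adjusted p = 0.067). FOSL1 missed it whichever library but PBS library 1 was left out (adjusted p 0.0513 to 0.208 in edgeR), which left 1 fall. FOSL1 also missed the threshold with limma-voom and with limma-trend on FPKM.

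Among 10 genes whose products bind AU-rich elements or degrade their transcripts, 2 rose and 4 fell, beside 18.7% and 16.7% of all tested genes. ZFP36, tristetraprolin, rose 1.33-fold (84.7 ± 2.89 CPM after lactic acid against 63.6 ± 3.10 CPM after PBS, adjusted p = 2.31e-05 in edgeR), and RC3H1, or roquin-1, 1.20-fold (43.2 ± 1.19 against 36.0 ± 2.07 CPM, adjusted p = 0.00138 in edgeR). RC3H1 missed the threshold with limma-trend on log2(FPKM + 0.1) (adjusted p = 0.064), which left 1 rise. KHSRP, a decay-promoting factor, fell by 0.21 on the log2 scale (127 ± 3.49 against 147 ± 2.77 CPM, adjusted p = 0.000851 in edgeR) and HNRNPD, or AUF1, by 0.12 (adjusted p = 0.0152 in edgeR). ELAVL1, the stabilising protein HuR, fell by 0.11 (adjusted p = 0.0397 in edgeR) and ZFP36L2, a relative of tristetraprolin, by 0.21 (adjusted p = 0.0296 in edgeR). ELAVL1 missed the threshold whichever library but lactic acid library 1 was left out (adjusted p 0.0573 to 0.116 in edgeR). ZFP36L2 missed it when lactic acid library 1 or 3 or PBS library 2 or 3 was left out (0.0833 to 0.115), and also with limma-trend on log2(FPKM + 0.1). The count of 4 falls was 2 in the 3 fits without the third lactic acid, the second PBS or the third PBS library.

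**Figure D4:**
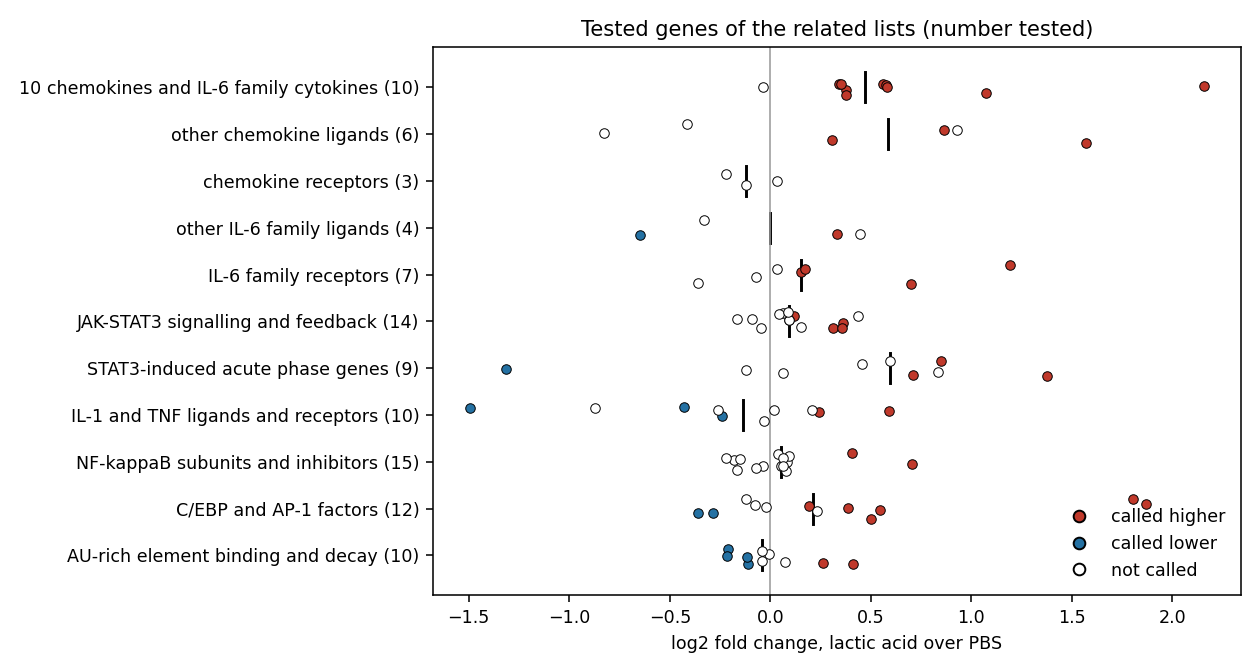
Log2 fold changes, lactic acid over PBS, of all tested genes in the 10 secreted signals and in the related lists; points are genes, red if called higher, blue if called lower and white if not called, and black bars are list medians. The 10 signals sit right of 0 except IL11, the receptor and signalling lists hold many white points near 0, and FOS and FOSB lie furthest right in the C/EBP and AP-1 list.

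Over the 6 libraries, the 5 genes whose log2 CPM most resembled that of CXCL5, the most abundant member, were DTX3L, CCDC97, FAM89B, TMEM167A and PKNOX1, with Pearson's r between 0.995 and 0.999 among 10790 genes. Since the libraries form 2 groups, 692 of these genes exceeded an r of 0.95, and the order among them is a description only.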

How the data were processed

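Per the labels' protocols, TRIzol-extracted RNA was selected for poly(A) tails with oligo(dT) beads, and paired-end reads of 150 bp were sequenced on a NovaSeq X Plus. The authors deposited whole-number counts per gene and FPKM per gene for 6 libraries. HISAT2, StringTie, DESeq2 and GRCh38 are named, without roles, per the submitters' processing notes; the annotation, the strand setting and the treatment of multimapping reads were stated nowhere in the sources used here. The labels name the control columns WT, but the tables name them NS; these were taken as the PBS samples because the library names in the labels contain NS.

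Counts were tested with edgeR 4.0.16 (R 4.3.3): TMM factors, filterByExpr (minimum count 10, total 15), group as the only term, two-sided quasi-likelihood F test, Benjamini-Hochberg over 15474 genes, call at an adjusted p under 0.05. SE is the log2 fold change over the square root of F. The procedure was tested on simulated counts with far fewer changed genes than were called here. That test therefore cannot show how the procedure behaves at this extent of change. Alternatives were RLE factors, library totals, DESeq2 1.42.0, limma-voom and limma-trend on FPKM (limma 3.58.1), 2 other filters, each library left out, a replicate block, summed CXC copies and, added after seeing the data, counts of overlapping genes added. Libraries of a group differed beyond counting noise (chi-square 6.27 to 9.11 per degree of freedom).

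The members and related lists were chosen with earlier results of these data known. Named genes were all members and, per list, those called that averaged 1 CPM or more, up to 6 by smallest p, or all tested where 5 or fewer. Some genes that the rule names are not reported here. Loci and 3′ untranslated regions are from GENCODE 29, promoters from RefSeq.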

Additional observations from a re-analysis of the deposited data

How the results depend on the processing

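The count of 9 rises and 0 falls among the 10 transcripts was found under all 16 alternatives. The number of genes called higher over the whole table, 2892, was 1803 and 1785 with limma-trend, FPKM being logged after adding 1 and 0.1, which differ in unit, test and filter. With library totals alone 2528 genes were higher and 2939 lower. Over the fits without 1 library each, 2362 to 2578 genes were higher and 2141 to 2402 lower. In the same fits the log2 fold changes ran from 0.50 to 0.61 for CXCL1, 0.33 to 0.46 for CXCL2, 0.55 to 0.59 for CXCL3, 0.30 to 0.37 for CXCL5 and 0.28 to 0.42 for CXCL8. They ran from 0.53 to 0.62 for CCL2, 1.93 to 2.57 for CCL20, 0.99 to 1.14 for IL6, 0.33 to 0.41 for LIF and −0.090 to 0.017 for IL11. The IL11 log2 fold change turned positive without the third PBS library (0.017). The CCR7 log2 fold change also turned there (0.026), and the CCR10 log2 fold change turned with limma-voom (−0.0038), with 0.1 added to FPKM (−0.021), without the third lactic acid library (−0.30) and without the first PBS library (−0.14); none of the 3 genes was called, and the cause was not tested. Over the fits without 1 library, the CCR7 log2 fold change ran between −0.23 and 0.026 and the CCR10 log2 fold change between −0.30 and 0.23. Deviations of same-numbered libraries from their group means had correlations of 0.041, 0.018 and 0.115 over 11270 genes, and those of differently numbered libraries −0.199 to 0.129. Since deviations of 3 libraries are tied to each other by their mean, these values cannot settle whether the libraries were paired. With the number as a replicate block, 9 of the 10 transcripts and 2886 genes were higher, 2596 genes were lower, and IL11 was at −0.036. Among the 10 transcripts CCL20 had the lowest counts, 16 to 37 after PBS.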
